A study of Mus musculus with 21 samples.

Results

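The 10 genes described here carry out and control the breakdown of branched-chain ketoacids, and they were followed in mouse liver after microRNA-122 was blocked. They are the kinase Bckdk, the phosphatase Ppm1k, the dehydrogenase subunits Bckdha, Bckdhb, Dbt and Dld, the mitochondrial transaminase Bcat2, and the downstream dehydrogenases Ivd, Acadsb and Hibadh. A member was every gene with a probe set whose platform annotation gave its symbol and no other. All 10 genes were measured, by 15 probe sets of 34945 with a single symbol, and they are 10 of 18193 genes. Each gene is shown by its brightest probe set, and the 5 others are given where they add to it.

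Liver RNA came from female NMRI mice, an outbred stock, in 6 groups of 3. A treated group and a saline group were killed on each of days 3, 9 and 23, and dosing was on day 2 with saline or with 25 mg per kg of SPC3372, a locked nucleic acid oligonucleotide directed at microRNA-122. Each mouse gave 1 Affymetrix array to the comparisons, and the 3 treated mice killed on day 23 gave an array to each of the array sets that the labels name, p0617 and p0621. Days 3 and 9 lie in p0617 and day 23 was compared within p0621, so days differ in array set as well as in time. Mouse numbers recur between days, and groups of different days were taken as different animals. The labels read here state no age.

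Valine, leucine and isoleucine lose their amino group to branched-chain transaminases, and the resulting ketoacids are oxidised in mitochondria by a complex of E1, E2 and E3 proteins. Bckdk phosphorylates the E1 alpha subunit and switches the complex off, and Ppm1k removes that phosphate and switches it on. Liver has much of the complex and little of the transaminase, so it mainly oxidises ketoacids released by other tissues. Bckdk has been described as a target that microRNA-122 represses.

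The promoters of 4 members are shown first. In the mean of days 3 of them (Bckdk, Ppm1k and Bckdha) were higher and 1 (Dld) was lower in treated livers. Bckdhb was also lower in that mean, and its windows are described below and not shown. Each window runs from 250 bases before to 50 bases after a RefSeq transcript start in build GRCm38.p6, read 5′ to 3′ on the gene's strand. Capitals mark matches, on either strand, to the CCAAT box, named for its letters, to the GC box spelled GGGCGG, to the TATA box spelled TATAAA, or to the E-box spelled CACGTG. No match overlaps another in the 4 windows shown.
Bckdk, chr7:127903823-127904122, plus strand: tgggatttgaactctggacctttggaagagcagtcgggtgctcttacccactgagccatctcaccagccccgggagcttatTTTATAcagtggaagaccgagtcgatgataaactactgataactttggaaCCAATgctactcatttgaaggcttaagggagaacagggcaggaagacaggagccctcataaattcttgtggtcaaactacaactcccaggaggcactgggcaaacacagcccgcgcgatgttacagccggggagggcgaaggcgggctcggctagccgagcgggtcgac
Ppm1k, chr6:57535438-57535737, minus strand: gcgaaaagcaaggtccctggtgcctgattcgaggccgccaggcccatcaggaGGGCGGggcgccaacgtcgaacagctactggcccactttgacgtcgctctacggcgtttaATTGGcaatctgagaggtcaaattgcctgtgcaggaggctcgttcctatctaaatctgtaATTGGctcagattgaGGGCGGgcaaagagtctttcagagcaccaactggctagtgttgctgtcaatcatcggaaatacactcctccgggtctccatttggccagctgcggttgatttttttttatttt
Bckdha, chr7:25658712-25659011, minus strand: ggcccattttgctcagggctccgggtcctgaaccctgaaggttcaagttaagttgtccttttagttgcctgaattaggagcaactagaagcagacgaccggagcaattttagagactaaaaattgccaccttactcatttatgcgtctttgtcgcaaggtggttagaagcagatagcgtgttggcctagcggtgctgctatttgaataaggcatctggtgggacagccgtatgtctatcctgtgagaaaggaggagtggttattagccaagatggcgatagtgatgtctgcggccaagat
Dld, chr12:31351422-31351721, minus strand: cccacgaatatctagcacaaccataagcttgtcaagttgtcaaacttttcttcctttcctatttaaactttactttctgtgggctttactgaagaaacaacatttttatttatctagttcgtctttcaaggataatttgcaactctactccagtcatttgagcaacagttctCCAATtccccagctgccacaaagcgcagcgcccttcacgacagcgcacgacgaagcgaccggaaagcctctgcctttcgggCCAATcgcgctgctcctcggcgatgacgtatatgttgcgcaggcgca

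No motif of the 4 searched is in all 4 of these windows. Bckdk holds 1 TATA box match and 1 CCAAT box match, Ppm1k holds 2 GC box and 2 CCAAT box matches, Dld holds 2 CCAAT box matches and Bckdha holds none. Of the other members, 5 have windows in the table, which gives 11 windows for 9 members, and Dbt is named only. Acadsb has 5 GC box matches and Hibadh 3. A Bckdhb window has 3 GC box and 2 CCAAT box matches, and another Bckdhb window has 1 CCAAT box match. None of the 11 windows holds an E-box. Among 32851 promoter windows of the same length, 7.15% hold an E-box, 35.7% a GC box, 37.4% a CCAAT box and 13.6% a TATA box. A GC box or CCAAT box match is thus common, and a TATA box or E-box match is less so. A match describes the letters and does not show a binding site.

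Markers of the labelled tissue were high. All 7 hepatocyte markers, among them albumin and transthyretin, were far above the array median in every mouse, and their summed log2 level ran from 97.4 to 98.9 over the 6 groups. The 3 exocrine pancreas markers measured were below the median of their array in at least 1 mouse of every group. The array median lay between 4.75 and 4.82 on the log2 scale on all 21 arrays. On the p0621 array of treated mouse 36 the log2 ratio of the 3′ to the 5′ probe set of beta-actin, a measure of how complete the RNA is, was 1.33. It was 1.08 and 1.04 on the p0621 arrays of the other treated mice of day 23. The mature microRNA was not analysed here. In bulk liver, fewer cells of a type and less RNA per cell cannot be told apart.

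Bckdk, the kinase that switches the complex off, rose after SPC3372 on days 3 and 9. On day 3 its log2 level was 6.50, 6.61 and 6.58 in the saline mice, given in the order of replicates 1, 2 and 3 here and below, and 7.64, 7.67 and 7.85 in the treated mice. The means were 6.57 ± 0.06 and 7.72 ± 0.11 (SD, n = 3 each). The groups were far apart, with the lowest treated mouse about a log2 unit above the highest saline mouse. The difference of 1.15 ± 0.12 (SE of the limma fit over all 18 arrays) is 2.22-fold, with an adjusted p of 2.38e-05 after Benjamini-Hochberg adjustment over 18193 genes.

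On day 9 Bckdk was 6.66, 6.68 and 6.83 in saline mice and 7.67, 7.80 and 7.90 in treated mice, with means of 6.72 ± 0.10 and 7.79 ± 0.12 (SD, n = 3 each). Again no treated mouse came near the saline range. The limma difference was 1.06 ± 0.12 (SE), or 2.09-fold, with an adjusted p of 0.000171. On day 23 the saline mice were at 6.80, 6.56 and 6.87 and the treated mice at 7.27, 7.55 and 7.04, with means of 6.74 ± 0.16 and 7.29 ± 0.25 (SD, n = 3 each). The treated mice still lay above all saline mice, but spread more widely than on the earlier days, and the lowest was close to the saline range. The limma difference of 0.54 ± 0.12 (SE), 1.46-fold, had an adjusted p of 0.0509 and missed the threshold of 0.05. With the p0617 arrays of the same treated mice the day 23 difference was 0.55 and the limma adjusted p 0.0349. The saline mice of day 23 have p0621 arrays only, so drug and array set cannot be told apart in that setting. Without treated replicate 1, mouse 36, the p0621 difference was 0.55 with a limma adjusted p of 0.105.

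Averaged over the 3 days, Bckdk was higher by 0.92 ± 0.07 (SE), 1.89-fold, with a limma adjusted p of 5.71e-07, and it was higher in 9 of 9 treated mice than in every saline mouse. The decline of the effect after day 9 was not established. The effect on day 23 was smaller than on day 3 by 0.61 on the log2 scale (limma adjusted p = 0.175) and smaller than on day 9 by 0.52 (adjusted p = 0.397). In order of group means the treated groups of days 9 and 3 stood highest and did not differ beyond their spread, followed by treated day 23 and then by saline days 23, 9 and 3. Saline days 23 and 9 did not differ beyond their spread.

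**Figure D1:**
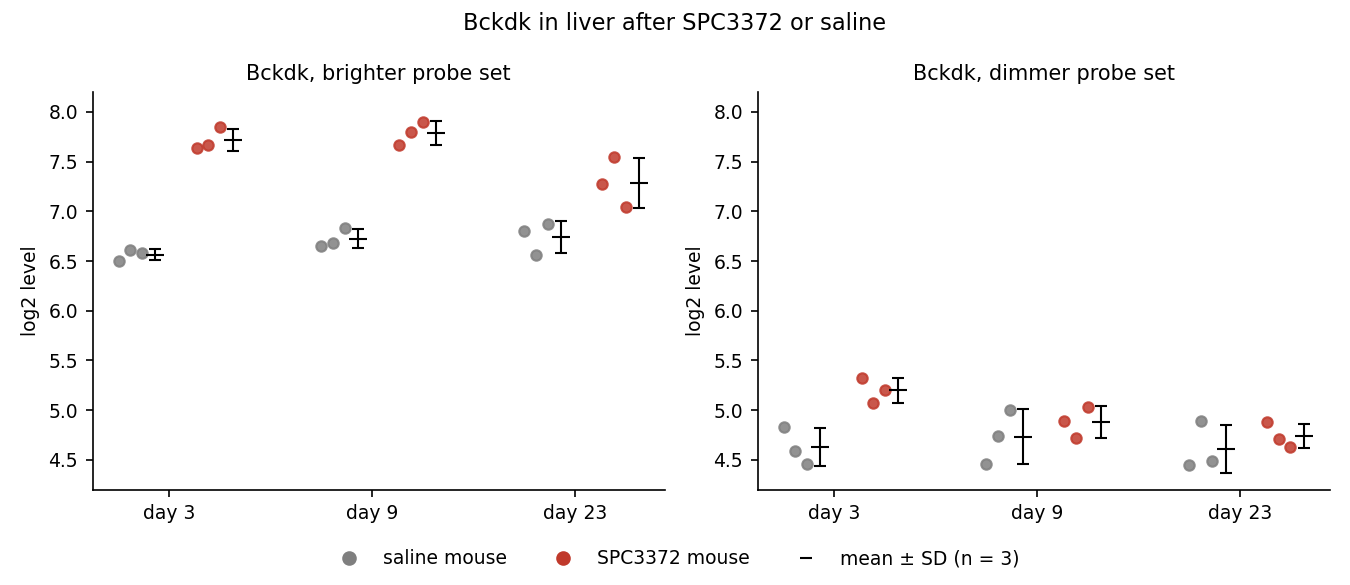
Log2 level of Bckdk (vertical axis) by day in each saline mouse (grey) and SPC3372 mouse (red), with the mean and SD of 3 mice in black, for the brighter and the dimmer probe set. For the brighter probe set all treated mice lie above all saline mice on every day, and for the dimmer one they separate on day 3 only.

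A second Bckdk probe set gave a smaller response. It is dim, at the 50.2 percentile of level among all probe sets, against 77.9 for the brighter one. On day 3 it read 4.83, 4.59 and 4.46 in saline mice and 5.33, 5.07 and 5.20 in treated mice, a difference of 0.57 ± 0.15 (SE) with a limma adjusted p of 0.0498 over 45037 probe sets. The groups did not overlap on that day. On days 9 and 23 its differences were 0.15 and 0.13, neither past the threshold, and the mean over days was 0.28 (adjusted p = 0.0544). When both probe sets were averaged, the day 9 difference of Bckdk fell to 0.61 and remained past the threshold (adjusted p = 0.00399).

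The repeat arrays bear on how far a reading moves without a change of mouse. Bckdk read 7.27, 7.55 and 7.04 in p0621 and 7.31, 7.50 and 7.09 in p0617 for mice 36, 37 and 38. These pairs differed by at most 0.05 in size, and both sets put the mice in the same order. Over all 10 genes and 3 mice the median size of such a difference was 0.0853, and the largest was 0.31, for Dbt in mouse 38.

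Ppm1k, the mitochondrial phosphatase that switches the complex on, was also higher in treated mice. On day 3 it was 9.56, 10.03 and 9.85 in saline mice and 10.20, 10.16 and 10.15 in treated mice. On day 9 it was 10.45, 10.57 and 10.51 against 11.03, 10.76 and 10.98, and on day 23 it was 10.41, 10.03 and 10.09 against 10.87, 10.64 and 10.56. The treated mice lay above all saline mice on each of the 3 days. The daily differences of 0.36, 0.42 and 0.51 (SE 0.12 each) had limma adjusted p-values of 0.118, 0.0829 and 0.0692, so no single day passed. Their mean of 0.43 ± 0.07 (SE), 1.35-fold, passed with an adjusted p of 0.000907.

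The dimmer Ppm1k probe set differed more on the later days and varied more between mice. Its differences were 0.13 on day 3, 0.73 on day 9 and 0.997 on day 23, each with an SE of 0.31. On day 23 it read 8.50, 7.89 and 7.52 in saline mice and 8.46, 9.05 and 9.39 in treated mice, so that 1 treated mouse lay within the saline range. The mean over days was 0.62 (limma adjusted p = 0.0487 over 45037 probe sets), in the same direction as the brighter probe set.

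Ppm1k also differed between saline groups, by an estimate larger than the drug difference of any of the 3 days, a contrast that was not tested. Saline mice of day 9 were 0.69 ± 0.12 (SE) above saline mice of day 3, 1.62-fold, with a limma adjusted p of 0.00237. Both groups lie in array set p0617. Bckdha was also higher in saline mice of day 9 than of day 3, by 0.37 ± 0.09 (adjusted p = 0.0173), and these were the 2 members called in that comparison, in which 5.88% of all genes were called, 2.76% higher and 3.12% lower on day 9. The Bckdha call was lost when the fit used the 2 groups alone (adjusted p = 0.0801), without saline day 3 replicate 1 (0.0602) or 3 (0.0737), without saline day 9 replicate 2 (0.0873), and with the beta-actin ratio as a covariate (0.118). Bckdk itself differed by 0.16 (adjusted p = 0.55) between the same saline groups.

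The 4 subunits of the complex did not move as a group. Bckdha, the E1 alpha subunit that Bckdk phosphorylates, was higher in treated mice. On day 3 it was 9.76, 9.85 and 9.71 in saline mice and 10.08, 9.96 and 10.18 in treated mice. On day 9 it was 10.05, 10.27 and 10.11 against 10.49, 10.50 and 10.63. The groups did not overlap on either day. On day 23 the saline mice were close together at 9.94, 9.95 and 9.94 and the treated mice at 10.21, 10.11 and 9.95, with the lowest treated mouse at the saline level. The differences were 0.30, 0.39 and 0.14 (SE 0.09 each), with limma adjusted p-values of 0.0646, 0.0239 and 0.502, and their mean was 0.28 ± 0.05 (adjusted p = 0.00181).

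The day 9 call of Bckdha rested on few arrays. It was lost when only the day 9 arrays were fitted (limma adjusted p = 0.101), without treated day 9 replicate 1 (0.0559) or 3 (0.105), and without saline day 9 replicate 1 (0.0902) or 3 (0.0814). The difference itself stayed between 0.35 and 0.46 over the settings that left out 1 array.

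Bckdhb, the E1 beta subunit that pairs with Bckdha, moved the other way and by less. On day 3 it was 12.07, 12.14 and 12.09 in saline mice and 11.86, 11.79 and 12.04 in treated mice. On day 9 it was 11.91, 12.07 and 12.02 against 11.74, 11.76 and 11.67, and on day 23 it was 11.90, 11.69 and 11.83 against 11.82, 11.57 and 11.78. The treated mice lay below all saline mice on days 3 and 9, and the groups overlapped on day 23. The differences of -0.20, -0.28 and -0.08 (SE 0.09 each) did not pass on any day (limma adjusted p = 0.229, 0.11 and 0.737). Their mean of -0.19 ± 0.05 did (adjusted p = 0.0237), but leaving out treated day 3 replicate 2 (0.051), treated day 23 replicate 2 (0.0511) or saline day 23 replicate 1 (0.0501) ended that call, as did reading mice 36, 37 and 38 from p0617 (-0.15, adjusted p = 0.0557).

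Dbt, the E2 core to which the other subunits attach, had differences of either sign and was not called. On day 3 it was 9.96, 9.61 and 9.71 in saline mice and 9.52, 9.34 and 9.48 in treated mice. On day 23 it was 9.88, 9.69 and 9.52 against 9.81, 9.98 and 10.26. The treated mice lay wholly below the saline mice on day 3 and overlapped with them on day 23. On day 9 the saline mice, at 9.60, 9.9998 and 9.43, enclosed the treated mice, at 9.76, 9.90 and 9.63. The differences were -0.31, 0.09 and 0.32 (SE 0.15 each; limma adjusted p = 0.272, 0.822 and 0.337), and the change of effect from day 3 to day 23, 0.63, did not pass either.

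Dld, the E3 subunit, which also serves the pyruvate and 2-oxoglutarate dehydrogenases and the glycine cleavage system, fell on day 3. It was 9.95, 9.97 and 9.97 in saline mice and 9.46, 9.51 and 9.52 in treated mice. Both groups were tight, and the gap between them was many times the spread within either. The difference of -0.47 ± 0.08 (SE), 1.38-fold lower, had a limma adjusted p of 0.00206. On day 9 the values were 9.86, 9.70 and 9.80 against 9.56, 9.54 and 9.43, still without overlap, with a difference of -0.28 ± 0.08 (adjusted p = 0.0679). On day 23 the groups were alike in range, at 9.59, 9.40 and 9.61 against 9.57, 9.40 and 9.51, with a difference of -0.04 ± 0.08 (adjusted p = 0.887).

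The mean Dld difference over days was -0.26 ± 0.05 (limma adjusted p = 0.00124). The effect of day 23 was above that of day 3 by 0.43, and this change had an adjusted p of 0.143, the lowest of any member in the 3 comparisons of effects between days. Saline Dld means stood at 9.96, 9.79 and 9.53 on days 3, 9 and 23, while the treated means stood at 9.49, 9.51 and 9.50. The treated groups thus did not differ beyond their spread, and the saline groups of days 3 and 9 stood above all others. The day 23 means come from the other array set. A second Dld probe set, at the 30.3 percentile of level, differed by -0.04, 0.04 and -0.11, none past the threshold, and averaging it with the first left a day 3 difference of -0.25 (adjusted p = 0.0422).

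**Figure D2:**
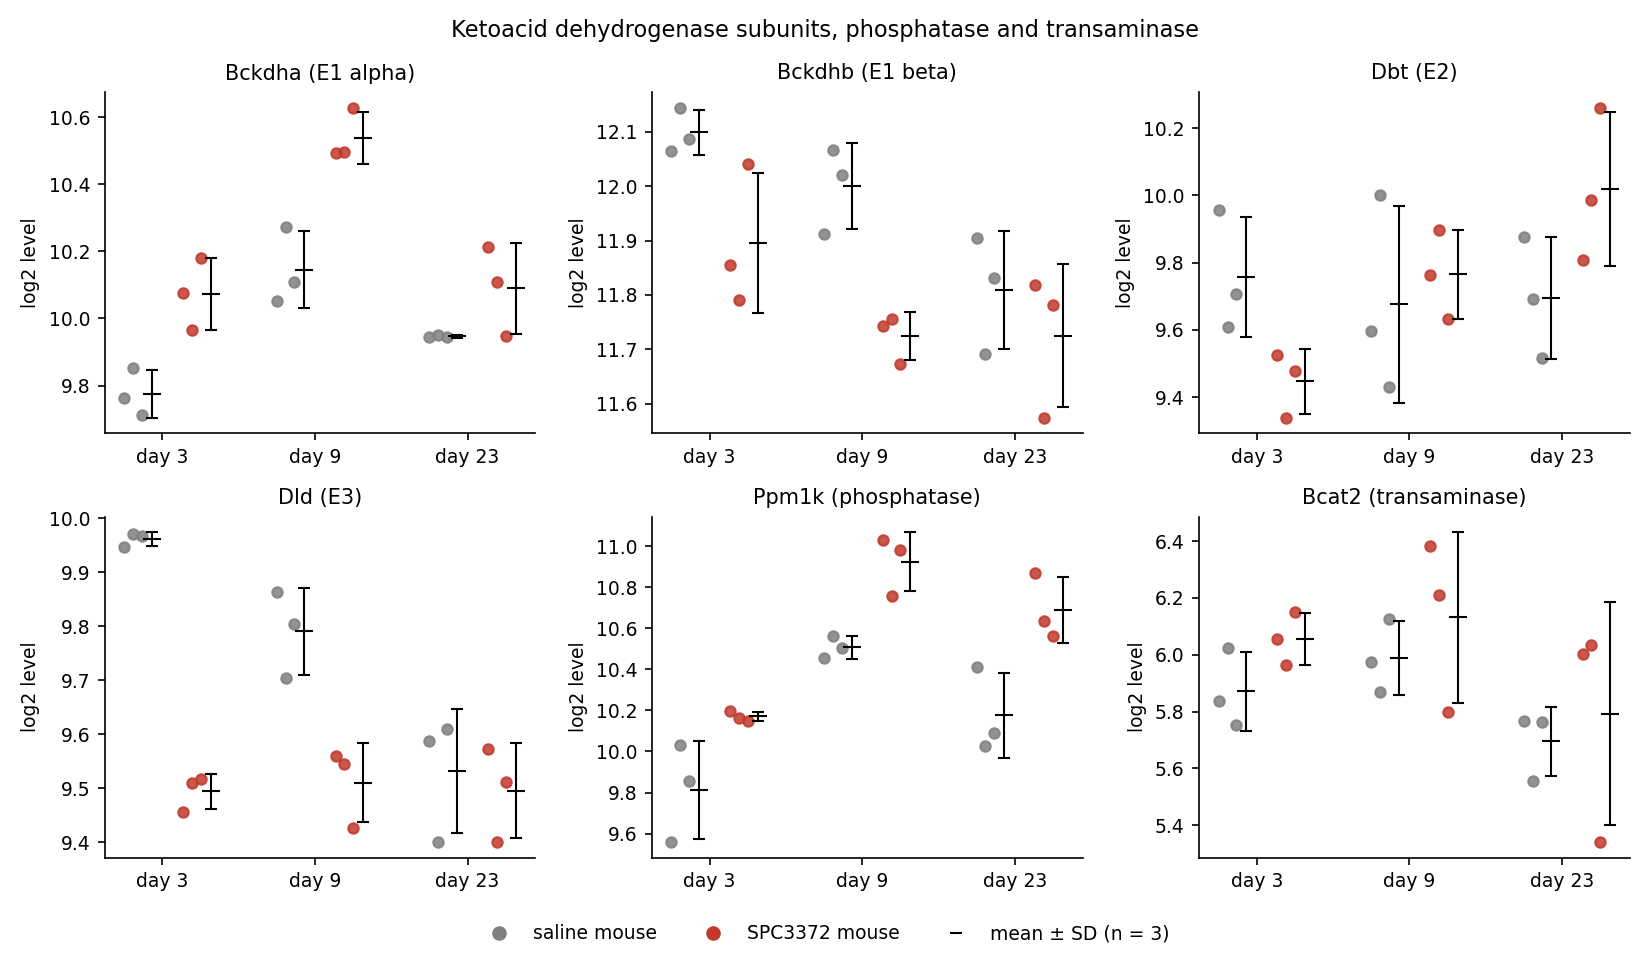
Log2 level (vertical axes, each with its own range) by day of the 4 subunits, the phosphatase and the transaminase in each saline mouse (grey) and SPC3372 mouse (red), with the mean and SD of 3 mice in black. Ppm1k is higher in treated mice on all days, Dld is lower on days 3 and 9, and the Bcat2 groups overlap on every day.

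Bcat2, the mitochondrial transaminase at the head of the pathway, showed no difference past the threshold. It was the noisiest member, with a pooled SD between mice of 0.225, against 0.147 for Bckdk. On day 3 it was 5.84, 6.02 and 5.75 in saline mice and 6.06, 5.97 and 6.15 in treated mice. On day 9 it was 5.97, 5.87 and 6.13 against 6.38, 6.21 and 5.80, and on day 23 it was 5.77, 5.56 and 5.76 against 6.002, 6.04 and 5.34. The groups overlapped on all days, and the mean difference was 0.14 ± 0.10 (limma adjusted p = 0.414).

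The dehydrogenases after the committed step did not pass on any day. Ivd, which oxidises isovaleryl-CoA from leucine, lay between 9.78 and 10.32 in all 18 mice, with differences of -0.07, -0.04 and 0.03. Its second probe set differed by -0.12, -0.04 and 0.03. Acadsb, which acts on the isoleucine product, lay between 9.86 and 10.35 and differed by -0.10, -0.07 and -0.01. The groups of Ivd and Acadsb overlapped on every day.

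Hibadh, the valine-branch dehydrogenase of 3-hydroxyisobutyrate, was the steadiest member, with a pooled SD of 0.05. On day 23 it was 12.62, 12.54 and 12.65 in saline mice and 12.69, 12.68 and 12.72 in treated mice, which did not overlap. The difference of 0.09 ± 0.07 (limma adjusted p = 0.616) did not pass, and it was 0.06 on day 3 and 0.04 on day 9. The second Hibadh probe set differed by 0.10, 0.03 and 0.08 on days 3, 9 and 23, none past the threshold. Its groups did not overlap on day 23. On day 9 its lowest treated mouse, at 12.0606, lay just above its highest saline mouse, at 12.0602.

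Counted together, 1 of the 10 members was called higher (Bckdk) and 1 lower (Dld) on day 3, when 4.51% of all genes were called by limma, 2.63% higher and 1.88% lower. On day 9 the 2 called were higher, Bckdk and Bckdha, against 2.81% of all genes in either direction, 1.91% higher and 0.896% lower. On day 23 none of the 10 was called by limma, against 0.385% of all genes. An unadjusted p below 0.05 was reached by 3 of the 10 on that day, beside 2522 of all 18193 genes. In the mean of the 3 days 5 were called, Bckdk, Bckdha and Ppm1k higher and Bckdhb and Dld lower, against 11.6% of all genes, 5.6% higher and 6.01% lower. No member was called in a change of effect between days. Of all genes, 0.143%, 0.0055% and 0.302% were called for days 9 against 3, 23 against 9 and 23 against 3. In the same order 0, 2 and 3 members had an unadjusted p below 0.05, beside 2117, 1581 and 1866 of all 18193 genes.

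Groups without overlap are common with 3 mice each. On day 3 the treated mice lay above all saline mice for 3 members (Bckdk, Bckdha and Ppm1k) and below for 3 (Bckdhb, Dbt and Dld), and the same held in either direction for 21.5% of all genes. On day 9 it was 3 above and 2 below, against 21.6%, and on day 23 it was 3 above (Bckdk, Ppm1k and Hibadh) and 0 below, against 19.2%. The median difference of the members was -0.01, 0.07 and 0.09 on days 3, 9 and 23, beside 0.01, -0.02 and -0.02 over all genes.

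**Figure D3:**
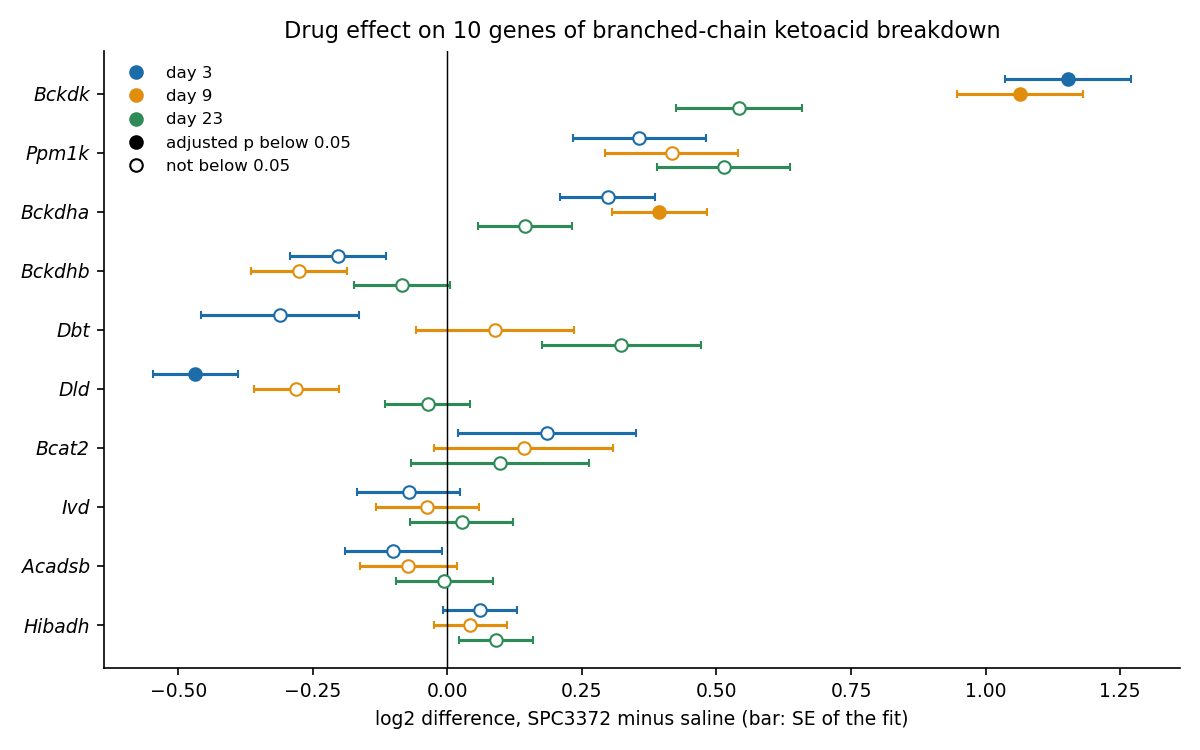
Log2 difference of SPC3372 minus saline (horizontal axis, bars are the SE of the limma fit) for the 10 genes on day 3 (blue), day 9 (orange) and day 23 (green), filled where the adjusted p is below 0.05. Bckdk lies near 1.1 on days 3 and 9 and at 0.54 on day 23, while Ivd, Acadsb and Hibadh stay near 0 on all 3 days, from -0.10 to 0.09.

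RNA completeness and some markers of other cell types differed between treated and saline mice on the early days. On day 3 the 3′ over 5′ ratio of beta-actin, on the log2 scale, averaged 1.03 ± 0.02 after SPC3372 against 0.80 ± 0.05 after saline. On day 9 the averages were 1.14 ± 0.02 against 0.93 ± 0.06, and on day 23 they were 1.15 ± 0.16 against 1.16 ± 0.04 (SD, n = 3 each). With this ratio as a covariate, which can also remove part of a drug effect, Bckdk was higher by 1.06 on day 3 (limma adjusted p = 0.0101) and by 0.98 on day 9 (0.0233). Dld was lower by 0.58 on day 3 (-0.58, adjusted p = 0.0278). The day 9 call of Bckdha was lost, with a difference of 0.30 (adjusted p = 0.396) in place of 0.39. In the mean of days the calls of Bckdha (0.21, adjusted p = 0.167), Ppm1k (0.29, 0.161) and Bckdhb (-0.23, 0.141) were lost, beside 0.28, 0.43 and -0.19 without the covariate. The SE of these 3 differences rose from 0.05, 0.07 and 0.05 to 0.08, 0.10 and 0.08.

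On day 3, 6 of 8 Kupffer cell and macrophage markers were called higher in treated mice, Marco by 1.98 and Clec4f by 1.04 on the log2 scale. Of all genes, 2.63% were called higher on that day. The summed log2 level of the 8 was 74.7, 79.8 and 74.9 after SPC3372 and 68.6, 64.7 and 73.4 after saline. The sum of every treated mouse exceeded that of every saline mouse. None of the 8 was called on day 9 or day 23, when 3 and 1 had an unadjusted p below 0.05, beside 3052 and 2522 of 18193 genes. Their sums on day 9 still did not overlap, at 70.4 to 71.01 after SPC3372 and 67.4 to 70.3 after saline. Of 4 lymphocyte markers measured, Gzma, a cytotoxic lymphocyte gene, was called higher on day 3, by 1.40, and the sums lay at 22.5 to 24.8 against 19.9 to 21.7.

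Of 6 stellate cell markers 2 were called higher on day 9, Reln by 0.63 and Dcn by 0.57, and the median difference of the 6 was 0.46. On that day 4 of the 6 differences were positive, and the lowest was -0.20. In the mean of days 0 of the 6 were called higher and 1 lower, beside 5.6% and 6.01% of all genes. The shares of all genes called higher were 2.63% on day 3 and 1.91% on day 9. The stellate sums were 47.97 to 49.6 after SPC3372 and 45.9 to 47.5 after saline on day 9, without overlap. Saline mice of day 3 had stellate sums of 48.7 to 49.9. All 6 markers were lower in saline mice of day 9 than of day 3, with a median difference of -0.44. Of 6 markers of the sinusoidal endothelium, Clec4g was called higher on day 3 (0.60) and day 9 (0.48), and the sums overlapped on both days. On each of these days 4 of the 6 differences were positive, and the lowest were -0.24 and -0.34. In the mean of days 2 of the 6 were called higher and 1 lower. Of 4 cholangiocyte markers, Epcam was called higher on day 3 (0.32), when the sums were 20.01 to 20.07 against 19.2 to 19.9. No neutrophil marker was called by limma on any day, with 1, 0 and 0 at an unadjusted p below 0.05, and the neutrophil sums of day 23 were 18.5 to 19.3 against 19.8 to 19.9. No hepatocyte marker was called by limma on any day, with 0, 1 and 0 at an unadjusted p below 0.05 on days 3, 9 and 23. The counts over all 18193 genes at that level were 3328, 3052 and 2522. The part of these cell types in the differences of Bckdk and of the other members was not tested.

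Outside these members, 44 of 46 listed genes of the same pathway and its relatives were measured, and 2 were not analysed here. On day 3 none was called higher and 4 lower, where 4.51% of all genes were called. On day 9 there were 1 higher and 2 lower, beside 2.81% of all genes, and on day 23 none by limma, beside 0.385% of all genes. An unadjusted p below 0.05 was reached by 9 of the 44 on day 23, beside 2522 of all 18193 genes. In the mean of days 3 were called higher and 10 lower, beside 11.6% of all genes, 5.6% higher and 6.01% lower. The medians of the 44 differences were -0.14, -0.04 and -0.03 on the 3 days. With the beta-actin ratio as a covariate 1, 0 and 4 of these genes were called on day 3, on day 9 and in the mean of days, when 98, 35 and 461 of all 18193 genes were. The 1 was Slc3a2, and the 4 were Acad8, Mmaa, Pdpr and Slc3a2. When only the arrays of the day were fitted, the day 3 calls of Acad8 (limma adjusted p = 0.0625), Hibch (0.106) and Mmaa (0.15) and the day 9 calls of Acad8 (0.134) and Hadhb (0.135) were lost.

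In the leucine branch, 4 of 5 listed genes were measured, Ivd included. Mccc2, the beta subunit of methylcrotonyl-CoA carboxylase, fell in the mean of days by 0.33 (-0.33 ± 0.07 SE, limma adjusted p = 0.0064), whereas its alpha subunit Mccc1 differed by 0.21 and did not pass. Auh, the hydratase of the next step, differed by -0.03. No gene of this branch was called by limma on a single day, where 4.51%, 2.81% and 0.385% of all genes were called on days 3, 9 and 23. In the mean of days 1 of the 4 was called, beside 11.6% of all genes, 5.6% higher and 6.01% lower.

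In the isoleucine and valine branch, 10 genes were measured and 3 fell and 1 rose in the mean of days. In that mean 6.01% of all genes were called lower and 5.6% higher. Acad8, the isobutyryl-CoA dehydrogenase of the valine route, was 8.32, 8.52 and 8.37 in saline mice and 7.90, 7.83 and 8.05 in treated mice on day 3, without overlap. It was lower by 0.48 on day 3 (-0.48, limma adjusted p = 0.0057), by 0.37 on day 9 (-0.37, adjusted p = 0.0392) and by 0.24 on day 23 (-0.24, not past the threshold). The day 9 call of Acad8 was lost without any 1 of treated replicates 1 and 2 or saline replicates 1, 2 and 3 of that day, and with the arrays centred on their median (-0.35, adjusted p = 0.0516). Hibch, the hydrolase that frees 3-hydroxyisobutyrate, was lower by 0.51 on day 3 (-0.51, adjusted p = 0.026), a call lost without treated replicate 1 or 2 or saline replicate 2 or 3 of day 3. Hsd17b10, of the isoleucine route, was lower in the mean of days (-0.29). Hadhb, the beta subunit of the trifunctional protein, was higher by 0.31 on day 9 (adjusted p = 0.0329), but by 0.17 (0.314) when its probe sets were averaged, which also ended its call in the mean of days (0.11, 0.148), and without treated replicate 1 or 3 or any of the saline replicates of day 9 it was not called. Acat1 and Echs1, with mean differences of 0.15 and -0.07, did not pass.

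In the route from propionyl-CoA to succinyl-CoA, 1 of 7 genes was called on a day or in the mean of days. The shares over all genes were 4.51% on day 3 and 11.6% in the mean of days. Mmaa, which helps load cobalamin onto methylmalonyl-CoA mutase, was lower by 0.35 on day 3 (-0.35, limma adjusted p = 0.0228) and by 0.31 in the mean of days (-0.31). The day 3 call was lost without treated replicate 1 or 2 or saline replicate 1 or 2 of day 3. Mmut, the mutase itself, differed by 0.05, and Mmachc and Mcee differed by -0.18 and -0.15, none past the threshold.

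Among the sister complexes that share or resemble the E3-dependent design, 9 of 10 listed genes were measured. No gene was called by limma on a single day, with 4, 2 and 2 at an unadjusted p below 0.05 on days 3, 9 and 23. The counts over all 18193 genes at that level were 3328, 3052 and 2522. In the mean of days Pdha1 and Pdhx of pyruvate dehydrogenase (-0.22 and -0.23) and Dlst of 2-oxoglutarate dehydrogenase (-0.23) were called lower, and Gldc, the glycine decarboxylase, higher (0.19). In that mean 6.01% of all genes were called lower and 5.6% higher. Dhtkd1 and Gcsh differed by -0.17 and -0.13 and did not pass. The Gldc call had an adjusted p of 0.0256 and was lost without treated day 3 replicate 1, saline day 3 replicate 3, treated day 23 replicate 3 or saline day 23 replicate 2. With the p0617 arrays the calls of Gldc (0.15, adjusted p = 0.0781) and Pdhx (-0.16, 0.0706) were lost.

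The list of pyruvate dehydrogenase kinases, phosphatases and a phosphatase regulator includes relatives of Bckdk and Ppm1k. Of its 7 genes 2 were called on a day or in the mean of days. Of all genes, 11.6% were called in the mean of days alone. Pdk1 was 9.95, 9.99 and 9.81 in saline mice and 9.01, 8.52 and 8.53 in treated mice on day 9. All treated mice lay below the saline mice by a wide gap on that day. The difference was -1.23 ± 0.20 (SE, limma adjusted p = 0.0045), and it was -0.51 (adjusted p = 0.114) when the probe sets of Pdk1 were averaged, which also ended its call in the mean of days (-0.29, adjusted p = 0.0567). On days 3 and 23 Pdk1 differed by -0.12 and -0.30, neither past the threshold. Pdpr, the regulatory subunit of pyruvate dehydrogenase phosphatase, was higher in the mean of days by 0.47 ± 0.10 (adjusted p = 0.0038). Pdk2 and Pdp1, with mean differences of -0.36 and 0.12, were not called.

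Of 10 transport and regulatory genes 1 was called on a day or in the mean of days. The shares over all genes were 4.51% on day 3 and 11.6% in the mean of days. Slc3a2, the heavy chain that carries the large neutral amino acid transporters to the membrane, was 9.39, 9.27 and 9.37 in saline mice and 8.67, 8.83 and 8.55 in treated mice on day 3. These groups were well apart. The difference of -0.66 ± 0.09 (SE) had a limma adjusted p of 0.000221. It was -0.13 on day 9 and -0.22 on day 23, neither past the threshold. Acly, the citrate lyase that Bckdk is also reported to phosphorylate, had the largest mean difference in this list, -0.43 ± 0.18, and did not pass (adjusted p = 0.14). Slc43a1, a transporter of branched-chain amino acids, differed by -0.23 in the mean of days and did not pass.

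**Figure D4:**
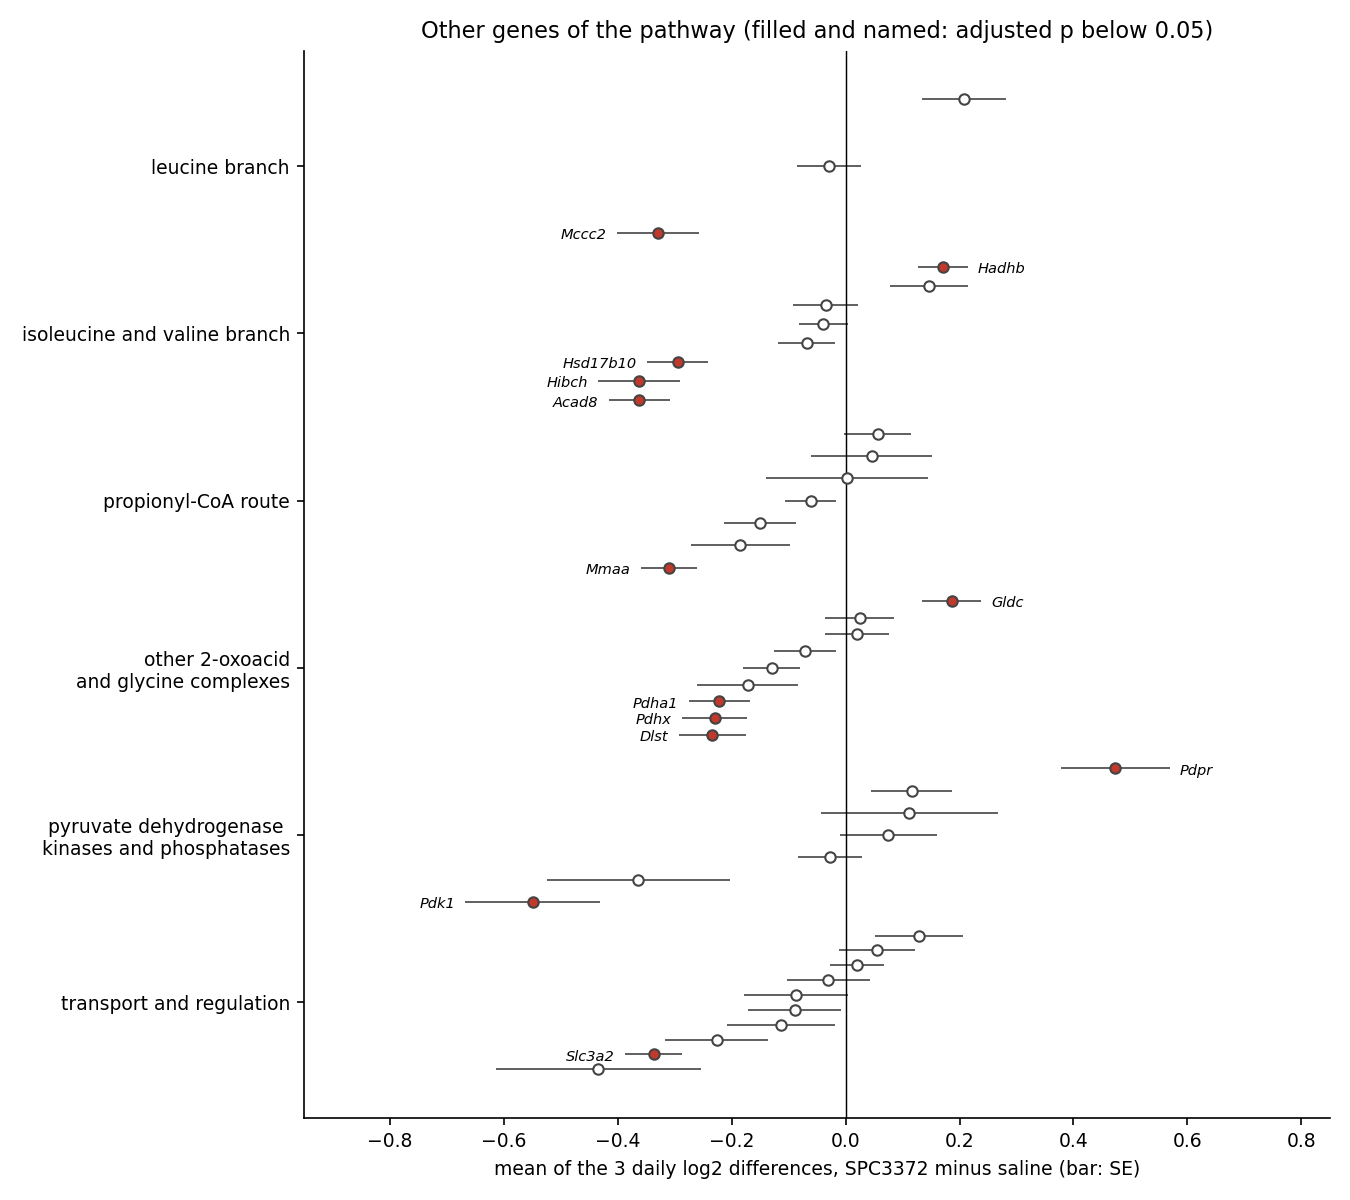
Mean of the 3 daily log2 differences of SPC3372 minus saline (horizontal axis, bars are the SE of the limma fit) for 44 other genes of the pathway in 6 lists, filled and named where the adjusted p is below 0.05. Of the 13 called, 10 lie below 0 and 3 (Hadhb, Gldc and Pdpr) above.

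The genes most like Bckdk were sought among the 9095 genes with a mean above the median of all genes, by the root mean square difference over the 6 group means after each gene was centred on its own mean. The 5 nearest were Cda (0.0998), Arhgef7 (0.107), Ang (0.116), Slc35a4 (0.123) and 2310022B05Rik (0.142), where Bckdk's own root mean square around its mean was 0.489. They were picked for this likeness, so their differences are a description. Cda, cytidine deaminase, was higher in treated mice by 1.23, 1.20 and 0.56 on days 3, 9 and 23, beside 1.15, 1.06 and 0.54 for Bckdk. Arhgef7, a guanine nucleotide exchange factor, was higher by 0.88, 1.10 and 0.54, and Ang, the ribonuclease angiogenin, by 0.82, 0.97 and 0.55. Slc35a4, a solute carrier, was higher by 0.79, 0.95 and 0.66, and 2310022B05Rik by 0.93, 0.73 and 0.50. The other members were less like Bckdk than these 5, with root mean square differences from 0.358 for Bckdha to 0.635 for Dld. Bckdha ranked 361 of 9095 by this measure, Ppm1k 823, Bcat2 876 and Dld 8325. The measure sets day 23 means from p0621 beside day 3 and day 9 means from p0617.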

How the data were processed

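Liver RNA was measured on 21 Affymetrix arrays from 18 mice. The authors deposited log2 levels per probe set, and the submitters' processing notes name RMA, a method that subtracts background, equalises the arrays by quantiles and summarises probes. Its version and the set of arrays it was run on together were not given in the labels read here. RMA can compress differences of dim probe sets, so their folds may understate the change. Whether it did so here was not tested, and precision is limited by 3 mice per group.

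Of 45101 probe sets, 64 controls were left out, and 34945 had a single symbol in the platform annotation. A gene with several probe sets was read from the brightest by mean over the 18 arrays that give each mouse once. The 18193 genes were fitted with limma 3.58.1 (R 4.3.3, with the package data.table in version 1.17.8), with 6 group means, 12 residual and 4.85 prior degrees of freedom, and p-values were adjusted by Benjamini-Hochberg at 0.05, two-sided. A gene is called where it passes. A second fit took 45037 probe sets one by one. The limma fit was tested on simulated data for the day 3 comparison only. Figures used Python 3.11.15, numpy 2.4.6 and matplotlib 3.10.9.

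All 10 members are named, along with every called gene of each other list and the 2 others with the largest mean difference. The members and lists were chosen with earlier results of these data known. Alternatives were each comparison's own arrays, quantile normalization again, median centring, genes above the median level, averaging the probe sets of a gene, a robust prior with an intensity trend, a block for the replicate number, the beta-actin ratio as a covariate, the p0617 array or the mean of both arrays for each treated mouse of day 23, and the omission of each array in turn. The saline mice of day 23 have p0621 arrays only, so the settings that use p0617 arrays for day 23 mix drug with array set. Promoters were taken from RefSeq, build GRCm38.p6, matched by symbol. No genome build comes with the deposited values.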

Additional observations from a re-analysis of the deposited data

How the results depend on the processing

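The increase of Bckdk on days 3 and 9 and in the mean of days, and the decrease of Dld on day 3 and in the mean of days, kept their direction and stayed past the threshold under all alternatives run. Bckdk ranged from 0.86 to 1.20 on day 3 and from 0.61 to 1.13 on day 9. On day 23 Bckdk crossed the threshold with genes above the median level only (0.54, limma adjusted p = 0.0261), with an intensity trend and a robust prior (0.54, adjusted p = 0.0353) and with the p0617 arrays (0.55, adjusted p = 0.0349), and its adjusted p over all alternatives of that day ran from 0.0261 to 0.196. The count of members called on day 23, 0 in the fit as reported, was then 2, 2 and 1. On day 9 the count was 4 with genes above the median level, 1 with the day's own arrays and 1 with the beta-actin covariate, under which it was 2 in the mean of days and 1 between the saline groups. It was also 1 between the saline groups with their own arrays. Leaving out each array gave 1 to 2 members on day 9, 0 to 1 on day 23 and 1 to 2 between the saline groups. Other members that missed the threshold in the fit as reported also crossed it in some alternatives. Ppm1k did so in 3 of 16 on day 23 (lowest limma adjusted p = 0.0357) and in 1 of 14 on day 9 (0.0495). Dld did so in 3 of 14 on day 9 (lowest 0.0288) and Bckdha in 2 of 14 on day 3 (lowest 0.0313).

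Directions reversed for members that were not called. With the beta-actin covariate these were Dbt on day 3 (0.053), Bcat2 on day 3 (-0.11), day 9 (-0.14) and in the mean of days (-0.050), and Ivd on day 9 (0.00044). With the p0617 arrays of the treated mice, set against p0621 saline arrays, they were Bckdhb (0.018) and Bcat2 (-0.048) on day 23. In the mean of days they were Dbt (-0.0054) and Ivd (0.0020) in that setting. Leaving out 1 array reversed some too, with ranges of -0.17 to 0.0097 for Ivd on day 3, -0.099 to 0.025 for Ivd on day 9, -0.016 to 0.081 for Ivd on day 23, -0.034 to 0.25 for Dbt on day 9, -0.0072 to 0.088 for Dbt in the mean of days, -0.10 to 0.011 for Dld on day 23, -0.024 to 0.32 for Bcat2 on day 23 and -0.093 to 0.075 for Acadsb on day 23. The cause was not tested.

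The replicate numbers were not taken as pairs in the fit as reported. Deviations of same-numbered treated and saline mice from their group means correlated between -0.14 and 0.08, which with 3 mice per group does not settle whether they pair. With the replicate block the adjusted p of Bckdk was 8.54e-05 on day 3 and 0.0688 on day 23, and the counts of members called were those of the fit without it. Over all genes the day 23 count was 13 with the block against 70 without. It was 139 with quantile normalization, 43 with median centring, 340 with genes above the median level, 210 with the intensity trend and 0 with the day's own arrays. On day 3 the count of 821 became 253 with own arrays and 98 with the beta-actin covariate, and on day 9 the count of 511 became 132 and 35.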

Other observations

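Saline mice of day 9 differed from saline mice of day 3 in other genes of the lists as well. Pdk4, a pyruvate dehydrogenase kinase that rises in fasted liver, was 5.57 ± 0.35 on day 9 and 7.39 ± 0.14 on day 3 (SD, n = 3 each), a limma difference of -1.82 ± 0.27 (SE, adjusted p = 0.000483). Hadhb was higher on day 9 by 0.38 (adjusted p = 0.00495) and Auh, of the leucine branch, by 0.37 (adjusted p = 0.0318). These 3 are the genes called among the 44 outside the members, where 5.88% of all genes were called. Tat, tyrosine aminotransferase, which was among the hepatocyte markers, was lower on day 9 by 1.09 (-1.09, adjusted p = 0.000536). Feeding state and hour of death are not in the labels read here.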
